A study of Mus musculus with 4 samples.

Results

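The Mir297, Mir466, Mir467 and Mir669 genes are a mouse microRNA family whose names carry a letter or copy suffix after these numbers. They were picked by name from the array's gene table, after earlier results of these data had shown several of them among the largest differences. Each gene was read from a cluster of probes (the array summarises all probes of a transcript to 1 value) that listed no other gene, and from the cluster with the highest mean where it had several. This gave 77 genes of 30701 in all. Copies with equal values on every array, to 2 decimals, cannot be told apart and were counted as 1 signal, which left 56 signals of 30359. They comprised 4 Mir297, 22 Mir466, 9 Mir467 and 21 Mir669 signals.

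A microRNA is cut from a hairpin in a longer transcript, first by Drosha and DGCR8 in the nucleus and then by Dicer in the cytoplasm. The short RNA is loaded into an Argonaute protein, where its seed pairs with messenger RNAs that are then repressed. Most genes of this family sit as a tandem cluster within Sfmbt2, a Polycomb group gene that is imprinted and is best known from the placenta and early embryo.

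The study measured mouse bone marrow on 4 Affymetrix arrays, 1 each for a control group, a cisplatin group, a group given Astragalus membranaceus (a legume whose root is a herbal remedy; astragalus below) and an electro-acupuncture group. Marrow was spun out of tibias after 2 weeks of treatment, and 6 marrow samples were mixed for RNA, read here as 6 per group. Cisplatin damages DNA by joining its bases, and dividing marrow cells are among those it harms. The sources used here do not give strain, age or dose, nor whether the astragalus and electro-acupuncture mice also received cisplatin. With 1 array per group no test could be run, so every difference below is a description of these arrays without a replicate check, and their number limits the precision. The contrasts share arrays, and a low or high value on 1 array enters each contrast that uses it.

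In the RefSeq gene table of GRCm38.p6, 81 genes carry these names, of which 71 lie inside the span of Sfmbt2 and 10 lie on other chromosomes. The members comprised 67 and 10 of these. Mir297a-2, Mir297b, Mir467a-2 and Mir467a-9 had no cluster of their own. The RefSeq sequence table matched 8 members with a mature sequence, all from genes outside Sfmbt2, and these are shown because their base composition parts them into 2 kinds. Capitals mark the seed, bases 2 to 8, and positions refer to GRCm38.p6.
miR-466j, chr10:60960802-60960824, plus strand: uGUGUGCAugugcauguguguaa
miR-466k, chr3:85467396-85467418, plus strand: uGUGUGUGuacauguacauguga
miR-467h, chr9:115381898-115381919, plus strand: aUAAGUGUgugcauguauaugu
miR-669n, chr3:115979905-115979924, plus strand: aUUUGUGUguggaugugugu
miR-466i-3p, chr13:17747552-17747573, plus strand: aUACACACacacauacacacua
miR-466q, chr3:28419988-28420007, plus strand: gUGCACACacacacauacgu
miR-467f, chr11:69635419-69635439, minus strand: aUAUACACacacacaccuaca
miR-467g, chr5:34732872-34732892, minus strand: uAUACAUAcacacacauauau

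All 8 seeds were different. The first 4 sequences are rich in UG and GU steps and the last 4 in CA and AC steps. The run CACACACA or UGUGUGUG, searched on the RNA strand, was present in 6 of the 8 (75.0%), against 5 of the 1730 other mature sequences of the table (0.289%). The hairpins of 3 UG-rich members, each holding a UGUGUGUG run, are shown with the mature arm in capitals. In Mir669n the run lies within that arm. The Mir466k hairpin holds such repeats beside the arm as well. In Mir467h the arm itself holds no full run, and the hairpin has one beside it.
Mir669n hairpin, chr3:115979902-115979955, plus strand: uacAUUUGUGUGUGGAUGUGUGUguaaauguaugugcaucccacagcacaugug
Mir467h hairpin, chr9:115381819-115381939, plus strand: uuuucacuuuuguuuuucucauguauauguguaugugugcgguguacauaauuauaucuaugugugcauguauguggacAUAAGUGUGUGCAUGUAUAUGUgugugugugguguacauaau
Mir466k hairpin, chr3:85467377-85467498, plus strand: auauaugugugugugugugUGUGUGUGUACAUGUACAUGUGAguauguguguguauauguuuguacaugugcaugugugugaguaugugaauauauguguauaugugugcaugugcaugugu

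Values are log2 levels, with an upper limit of 19.93, and a difference of 1 is a 2-fold difference. The median of all clusters was 5.27 (control), 5.26 (cisplatin), 5.15 (astragalus) and 5.31 (electro-acupuncture), so the astragalus array lay lowest and the electro-acupuncture array highest before any gene is considered. Marrow markers were present: all 3 erythroid, 5 neutrophil and 3 B cell markers measured had means at or above 5.235, the median of all clusters and the low-level mark used here. None of the 3 trophoblast markers measured did, and 2 of 5 embryonic stem cell markers did (Dppa5a and Zfp42), with Pou5f1 between 4.63 and 4.83. Osteoblast markers differed among the arrays, with a median level over 4 genes, all at or above that mark, of 7.92 in control, 10.75 in cisplatin, 9.46 with astragalus and 8.85 with electro-acupuncture. Among them Ibsp lay near the mark and hardly differed, at 5.42, 5.70, 5.30 and 5.29 in that order. The median of the 3 B cell markers was 9.20, 7.84, 8.20 and 8.29 in the same order. That of the 5 neutrophil markers was 16.39, 16.11, 16.81 and 16.22, and among them Mpo, the granule myeloperoxidase, was at 11.70 in control and 12.80, 13.75 and 13.25 on the others. Elane, neutrophil elastase, was at 10.34, 11.20, 11.93 and 11.70. Ltf, Camp and Ngp differed from control by -0.28, -0.37 and 0.0 in cisplatin and by -0.17, 0.0 and 0.0 in electro-acupuncture. In astragalus they differed from control by 0.42, 0.13 and 0.01. The platelet gene Pf4 was at 15.24 in control and 17.20 on each other array. The part of these cells in the values below was not tested. Of the 56 signals, 50 had a mean at or above the low-level mark. In mixed marrow, more cells that make a transcript and more transcript per cell cannot be told apart.

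For most of the family the electro-acupuncture array was highest or the astragalus array lowest. Electro-acupuncture was the single highest array for 37 of 56 signals (66.1%), against 28.0% of all signals and 21.9% of those at or above the low-level mark. Astragalus was the single lowest for 44 (78.6%), against 34.0% and 19.9%. Other microRNA genes lay between, with electro-acupuncture highest for 38.7% (42.4% at or above the mark) and astragalus lowest for 40.4% (39.1%). Neither electro-acupuncture (0 of 56, against 18.2% of all signals) nor control (0 of 56, against 25.4%) was the single lowest array for any signal. The full order astragalus, cisplatin, control, electro-acupuncture from low to high was seen for 22 signals (39.3%), against 6.44% of all signals and 9.05% of the 840 signals of other microRNA genes. Among signals at or above the low-level mark that order was seen for 3.64%.

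**Figure D1:**
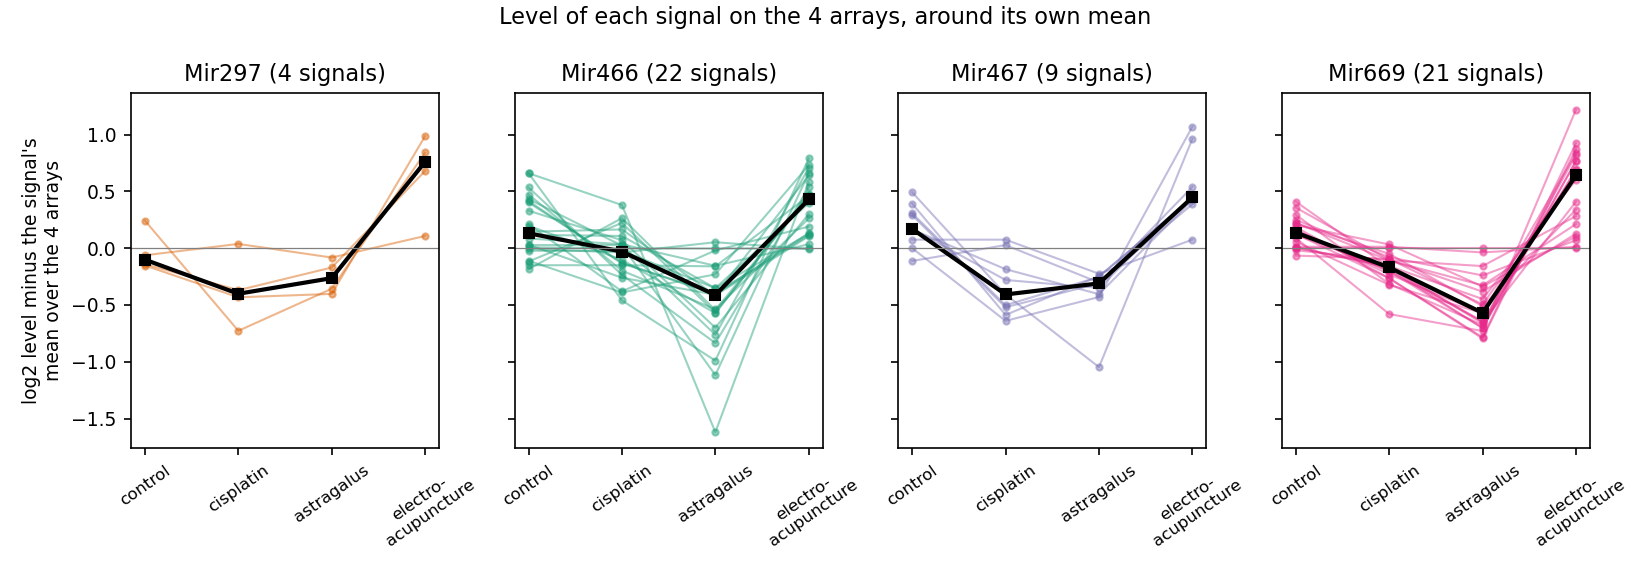
Level of each signal on the 4 arrays (log2, minus that signal's own mean over the 4 arrays), in 1 panel per name family; coloured lines are signals and black squares are the median of the panel. The median is highest in electro-acupuncture in all 4 panels, and is lowest in cisplatin for Mir297 and Mir467 and lowest in astragalus for Mir466 and Mir669.

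The contrast of electro-acupuncture with cisplatin asks where marrow after electro-acupuncture differs from marrow after the drug. Family signals were higher in electro-acupuncture in 50 of 56 cases, equal in 5 and lower in 1, with a median log2 difference of 0.61. Over all signals 54.0% were higher and 43.6% lower. At least 2-fold higher were 14 of 56, and none was 2-fold lower, against 1.21% of all signals. Over all signals 0.823% were at least 2-fold higher and the median was 0.03. Over signals at or above the low-level mark 1.31% were. Other microRNA genes had 25 of 840 at least 2-fold higher and a median of 0.10. This contrast is where members of the family were first noticed, so these counts describe it and support nothing further.

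Mir669b had levels of 9.40 (control), 8.73 (cisplatin), 8.58 (astragalus) and 10.53 (electro-acupuncture). Its electro-acupuncture level was 3.48-fold that of cisplatin, the largest such difference in the family. Mir467e was at 11.37, 10.73, 10.94 and 12.44 in the same order of arrays, a 3.27-fold difference. Both genes were highest in electro-acupuncture and had cisplatin and astragalus as their lower arrays. Mir297c was at 9.55, 8.58, 8.95 and 10.15, a 2.97-fold difference, and Mir297a-3 at 10.16, 9.88, 9.91 and 11.30, a 2.68-fold difference. For Mir297a-3 the other arrays lay within 0.28 of each other, so electro-acupuncture stood apart from all of them.

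Outside Sfmbt2, Mir467h was at 15.56 (control), 14.66 (cisplatin), 14.02 (astragalus) and 16.03 (electro-acupuncture), 2.58-fold higher in electro-acupuncture than in cisplatin. Mir669n was at 13.84, 13.39, 12.86 and 14.53, a 2.20-fold difference. These are the UG-rich miR-467h and miR-669n shown above, and their arrays ran in the same order. The copies Mir669p-1 and Mir669p-2 shared 1 signal at 6.06, 5.67, 5.15 and 6.86, which was 2.28-fold higher. Mir669c was 2.23-fold higher, and Mir466d, read from a cluster away from the gene, was 2.38-fold higher (a difference of 0.65 at the gene). At the threshold, Mir669d lay just inside with a difference of 1.01, and Mir669a-2 just outside with 0.99. Further signals past it were Mir466b-2, Mir467b, Mir297a-4 and the Mir467a-1 signal of 5 copies, between 2.04-fold and 2.17-fold.

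By name, of the Mir297 signals 3 of 4 were at least 2-fold higher in electro-acupuncture than in cisplatin, of the Mir467 signals 4 of 9, of the Mir669 signals 5 of 21 and of the Mir466 signals 2 of 22. Their median differences were 1.24, 0.95, 0.76 and 0.34. Whether the name families differ could not be tested with 1 array per group.

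**Figure D2:**
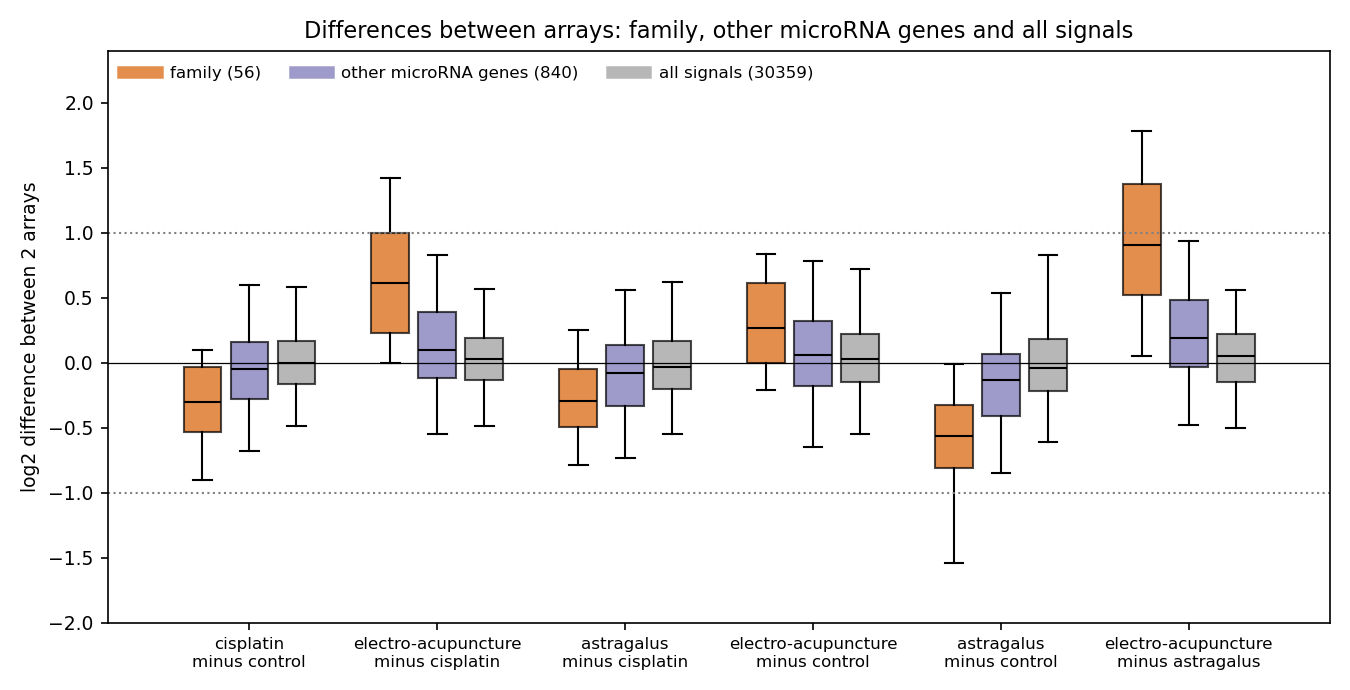
Log2 differences between pairs of arrays for the 56 family signals, 840 signals of other microRNA genes and all 30359 signals; boxes span the quartiles with the median as a line, whiskers the 5th to 95th percentile, and dotted lines mark a 2-fold difference. The family box is above that of all signals in the contrasts of electro-acupuncture with cisplatin and with astragalus, with medians of 0.61 and 0.91, and below it in the contrast of astragalus with control, with a median of -0.57.

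The contrast of electro-acupuncture with astragalus held the most differences. Electro-acupuncture was higher for 53 of 56 signals, and at least 2-fold higher for 27 (48.2%), with a median of 0.91. Over all signals 0.609% were at least 2-fold higher and 0.402% lower, while 56.1% were higher and 42.0% lower by any amount. At or above the low-level mark 0.800% were at least 2-fold higher and 40.2% higher by any amount. Of the other microRNA genes 38 of 840 were at least 2-fold higher and 70.4% higher by any amount, with a median of 0.19. At or above the mark 29 of 453 of them were at least 2-fold higher and 72.0% higher by any amount. With each array centred on its own median, the family median was 0.75, and the median of all signals moved from 0.05 to -0.11. The largest differences were Mir466o, also read from a cluster away from the gene, at 4.59-fold and Mir467h at 4.03-fold, then Mir669b at 3.86-fold. At the gene, Mir466o differed by 0.65, Mir466d by 0.85 and Mir466f-3 by 0.23, all under 2-fold. Mir466d and Mir466f-4 were each 3.43-fold higher, and the Mir669p signal 3.27-fold. Past 2-fold were 13 of 21 Mir669 signals, 10 of 22 Mir466, 2 of 9 Mir467 and 2 of 4 Mir297. The nearest to the threshold were Mir466b-3 at exactly 1.00 and Mir466b-2 at 0.96.

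The signal of Mir669a-4 to Mir669a-12, 9 copies with equal values, had levels of 5.82 (control), 5.52 (cisplatin), 5.0 (astragalus) and 6.47 (electro-acupuncture). It was 2.77-fold higher in electro-acupuncture than in astragalus, where it lay under the low-level mark. Mir466j, the gene of the UG-rich miR-466j, was at 15.98, 15.98, 15.19 and 16.66, also a 2.77-fold difference.

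The contrast of astragalus with control was mostly one of lower values. In astragalus 54 of 56 signals were lower than in control, 1 was equal and 1 higher, with a median of -0.57 against -0.04 over all signals. Over all signals 55.6% were lower and 42.6% higher, and at or above the low-level mark 42.5% were lower. Of the other microRNA genes 65.4% were lower (64.9% at or above the mark), with a median of -0.14. At least 2-fold lower were 8 of 56 (14.3%), against 1.35% of all signals and 2.09% at or above the low-level mark. None was 2-fold higher, against 3.51% of all signals. Mir466d was at 14.58 in control and 12.93 in astragalus, 3.14-fold lower, and Mir466f-4 at 16.38 and 14.83, 2.93-fold lower. Mir467h was 2.91-fold lower, and the other members past 2-fold were Mir466o, Mir466f-3, Mir669a-3, Mir466b-3 and Mir466p. Mir466p lay just inside at -1.01 and Mir669n just outside at -0.98. Of these 8, 6 were Mir466 signals, but 3 of the 6 were read from a cluster away from the gene. With the cluster at the gene, Mir466d was at -0.55, Mir466f-3 at -0.52 and Mir466o at 0.23, and 5 signals passed.

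The contrast of astragalus with cisplatin held fewer differences. Astragalus was lower for 44 of 56 signals, with a median of -0.30 against -0.03 over all signals, of which 54.2% were lower and 43.8% higher. Past 2-fold were 2 signals, both lower (3.57%, against 0.968% of all signals; 1.17% were 2-fold higher): Mir466o at 4.0-fold and Mir466f-4 at 2.20-fold. The nearest outside was Mir466, with a difference of -0.81. At or above the low-level mark 2 of 50 family signals were at least 2-fold lower, against 1.33% of all signals. Of the other microRNA genes 58.8% were lower, with a median of -0.08, and 16 of 840 were at least 2-fold lower. With the cluster at the gene Mir466o was at -0.17, and Mir466f-4 alone passed. Lower in astragalus were 20 of 21 Mir669, 18 of 22 Mir466, 5 of 9 Mir467 and 1 of 4 Mir297 signals, and differences among the name families were not tested. The Mir467a-1 signal of 5 copies had levels of 9.45 (control), 8.47 (cisplatin), 8.81 (astragalus) and 9.50 (electro-acupuncture). Its lowest array was cisplatin, and its control and electro-acupuncture levels lay 0.05 apart.

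The contrasts with control that remain were smaller. Electro-acupuncture was higher than control for 37 of 56 signals and lower for 13, with a median of 0.27 against 0.03 over all signals, of which 54.2% were higher and 43.6% lower. Past 2-fold were 3 signals (5.36%, against 2.45% of all signals; 1.51% were 2-fold lower), Mir297a-3 at 2.20-fold, Mir669b at 2.19-fold and Mir467e at 2.10-fold. The nearest outside was Mir466b-2 at 0.84. At or above the low-level mark 3 of 50 family signals were at least 2-fold higher, against 4.20% of all signals. Of the other microRNA genes 56.4% were higher, with a median of 0.06, and 16 of 840 were at least 2-fold higher. Cisplatin was lower than control for 45 of 56 signals and higher for 5, with a median of -0.30 against 0.00 over all signals, of which 48.3% were lower and 49.3% higher. Mir466d alone passed 2-fold, at -1.12 (1.79%, against 0.590% of all signals; 1.22% were 2-fold higher), and the Mir467a-1 signal lay just outside at -0.98. At or above the low-level mark 1 of 50 family signals was at least 2-fold lower, against 0.947% of all signals. With the cluster at the gene Mir466d was at -0.35, and Mir669h alone passed, at -1.07. Of the other microRNA genes 56.5% were lower in cisplatin, with a median of -0.05, and 14 of 840 were at least 2-fold lower.

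Some members hardly differed among the arrays. Mir466h was at 12.80 in control and 12.79 on each other array. Mir297-1, on chromosome 7 and under the low-level mark, was between 4.78 and 4.97. Mir466i was between 8.12 and 8.21 and Mir466q between 9.80 and 10.04. Mir669e was at the upper limit of 19.93 on all arrays, and Mir467f and Mir669m-2 on all but astragalus, at 19.63 and 19.88. Their differences are not measurable on these clusters, which lie away from the genes. On a cluster of its own chromosome, Mir467f was between 9.63 and 10.09. With the cluster at the gene, Mir669e was between 5.13 and 5.65. There Mir669m-2 was at 7.43 (control), 7.38 (cisplatin), 7.14 (astragalus) and 8.21 (electro-acupuncture). Its electro-acupuncture level was 2.10-fold that of astragalus.

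The 8 members with a mature sequence were set side by side by base composition after their values had been seen, so the ranges below describe these genes and support nothing. The 4 genes of UG-rich sequences, Mir466j, Mir466k, Mir467h and Mir669n, were higher in electro-acupuncture than in cisplatin by 0.58 to 1.37. The CA-rich Mir466i, Mir466q and Mir467g differed by 0.00 to 0.36. In astragalus against control the UG-rich genes differed by -1.54 to -0.77 and these 3 CA-rich genes by -0.24 to 0.06. The levels also lay apart, at 12.86 to 16.66 for the UG-rich genes and 5.31 to 10.04 for these 3 CA-rich genes. Level and base composition cannot be told apart here. Mir297-1 was matched with a hairpin but no mature sequence, so it is outside these ranges. UG and GU steps made up 37.3% of its hairpin, against 40.0% for Mir467h, and it holds no UGUGUGUG run. Mir297-1 differed by 0.07 in electro-acupuncture against cisplatin and by -0.02 in astragalus against control. In the contrasts with control that remain, the ranges met or overlapped. Electro-acupuncture differed from control by 0.28 to 0.69 for UG-rich and by -0.05 to 0.50 for CA-rich genes, and cisplatin by -0.90 to 0.00 and by -0.05 to 0.14. Astragalus differed from cisplatin by -0.79 to -0.47 and by -0.33 to 0.09, and electro-acupuncture from astragalus by 1.05 to 2.01 and by -0.06 to 0.69. The fourth CA-rich gene, Mir467f, sat at the upper limit on its used cluster. Its cluster on the chromosome of the gene had 0.21 for electro-acupuncture against cisplatin and -0.46 for astragalus against control. The mature RNA itself was not measured apart from its transcript.

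Which cluster stands for a gene mattered for some members. For 12 of the genes the table listed 2 clusters that named no other gene, and some genes were also listed for a cluster shared with others. The cluster numbers carry the chromosome, and along the start of chromosome 2 their order followed the gene positions in 181 of 183 neighbouring pairs. By this, 7 genes were read from a cluster that does not lie at the gene: Mir466d, Mir466f-3, Mir466o, Mir467f, Mir669e, Mir669h and Mir669m-2. For the 10 genes outside Sfmbt2 only the chromosome was compared, so for them a cluster at the gene means one on its chromosome. Whether such a cluster lies at the gene itself was not checked. Mir466o was at 17.71 (control), 17.43 (cisplatin), 15.43 (astragalus) and 17.63 (electro-acupuncture) on a cluster of chromosome 12. At its own place on chromosome 2 it was at 5.12, 5.52, 5.35 and 6.00, and the difference of astragalus from control turned from -2.28 to 0.23. Mir466d at its own place was at 10.73, 10.38, 10.18 and 11.03, and none of its differences reached 2-fold there. Mir669b and Mir467e were read at their own place. With the cluster at the gene, 13 of 56 signals were at least 2-fold higher in electro-acupuncture than in cisplatin and 25 than in astragalus. In that setting 5 signals were 2-fold lower in astragalus than in control and 1 was lower than in cisplatin.

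**Figure D3:**
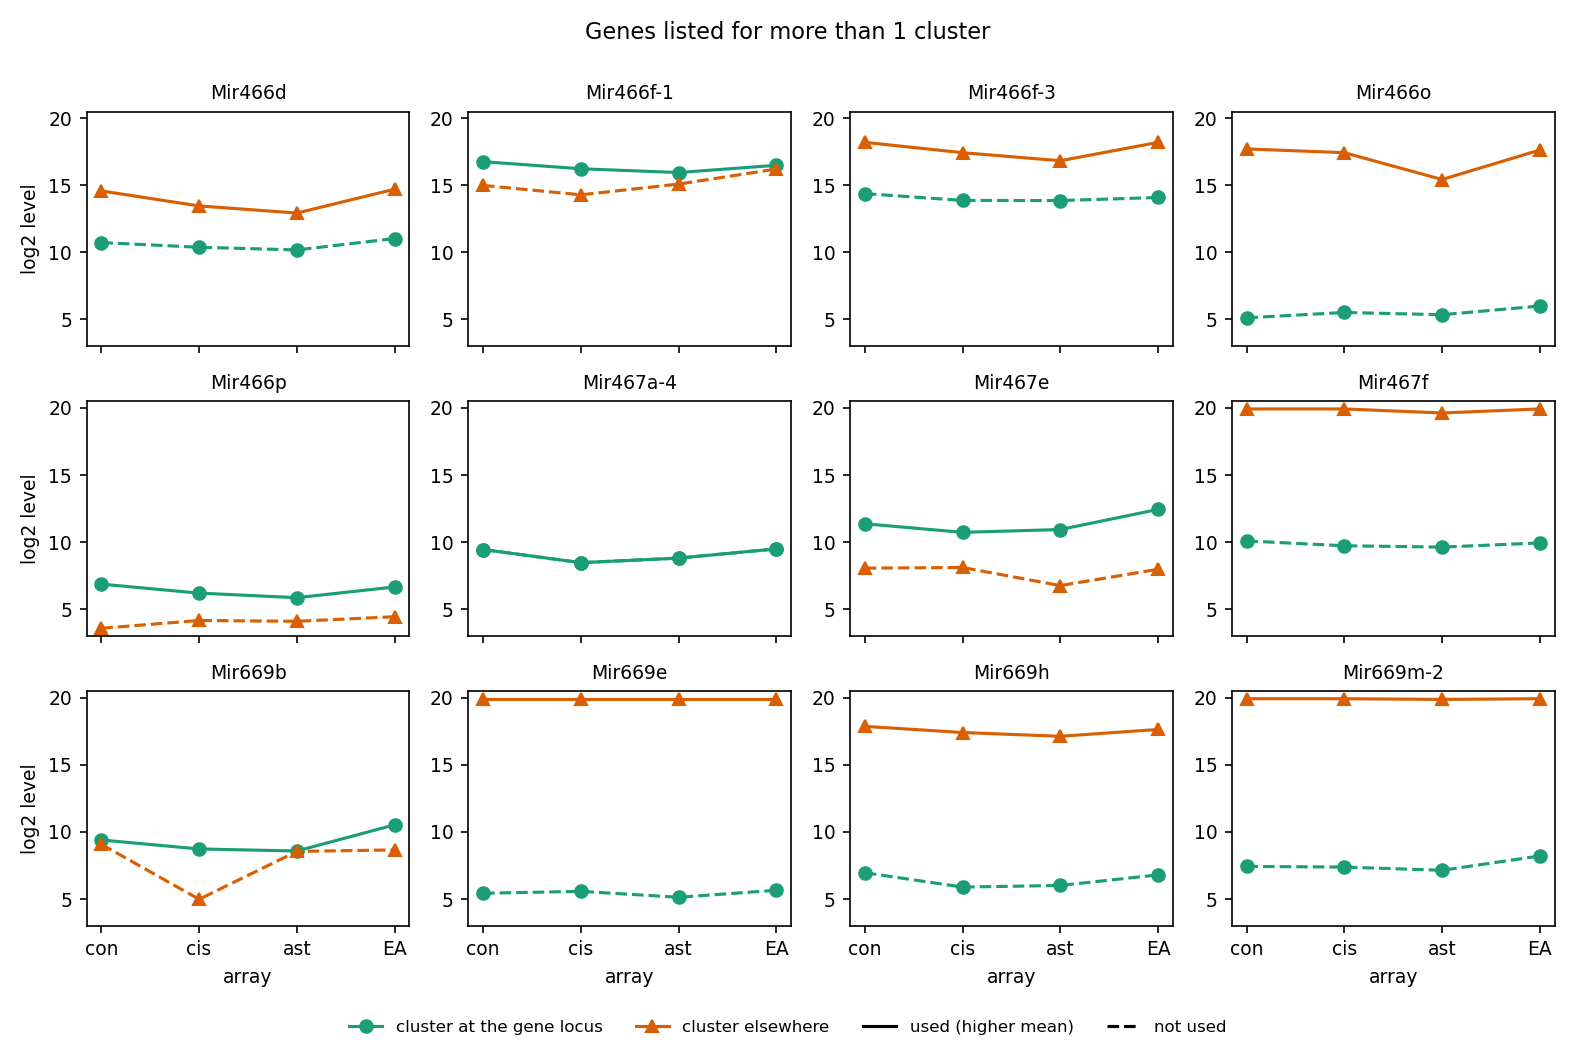
Log2 levels on the control (con), cisplatin (cis), astragalus (ast) and electro-acupuncture (EA) arrays for the 12 genes with 2 clusters that name no other gene; green circles are clusters at the gene, orange triangles clusters elsewhere, solid lines the cluster used and dashed lines the other. The used cluster lies elsewhere for 7 genes, among them Mir669e, flat at the limit of 19.93, and both clusters of Mir467a-4 have equal values. For Mir467f, at the gene means only on its chromosome.

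The host gene and its neighbours stayed within 2-fold on all arrays. Sfmbt2 itself was under the low-level mark on every array, at 5.05 (control), 4.93 (cisplatin), 4.96 (astragalus) and 5.12 (electro-acupuncture). On one side of it Itih5, which encodes an inter-alpha-trypsin inhibitor heavy chain, was between 6.09 and 6.27. On the other side Prkcq, a protein kinase C of T cells, was at 6.89 in control and between 7.64 and 7.72 on the other arrays. Between the first and last family gene of the locus lay 42 clusters for which no family gene is listed and whose values equal no family cluster. They gave 33 distinct signals. Of these, 30 were higher in electro-acupuncture than in cisplatin, with a median of 0.61, against 54.0% of all signals. In astragalus 31 were lower than in control, with a median of -0.58, against 55.6% of all signals. Several of these clusters lay near or under the low-level mark, among them 1 at 5.17 (control), 4.44 (cisplatin), 4.81 (astragalus) and 5.80 (electro-acupuncture). The 7 clusters between the family genes and Sfmbt2 or Prkcq had medians of 0.12 and -0.26, with 4 of 7 higher in electro-acupuncture than in cisplatin and 6 of 7 lower in astragalus than in control.

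**Figure D4:**
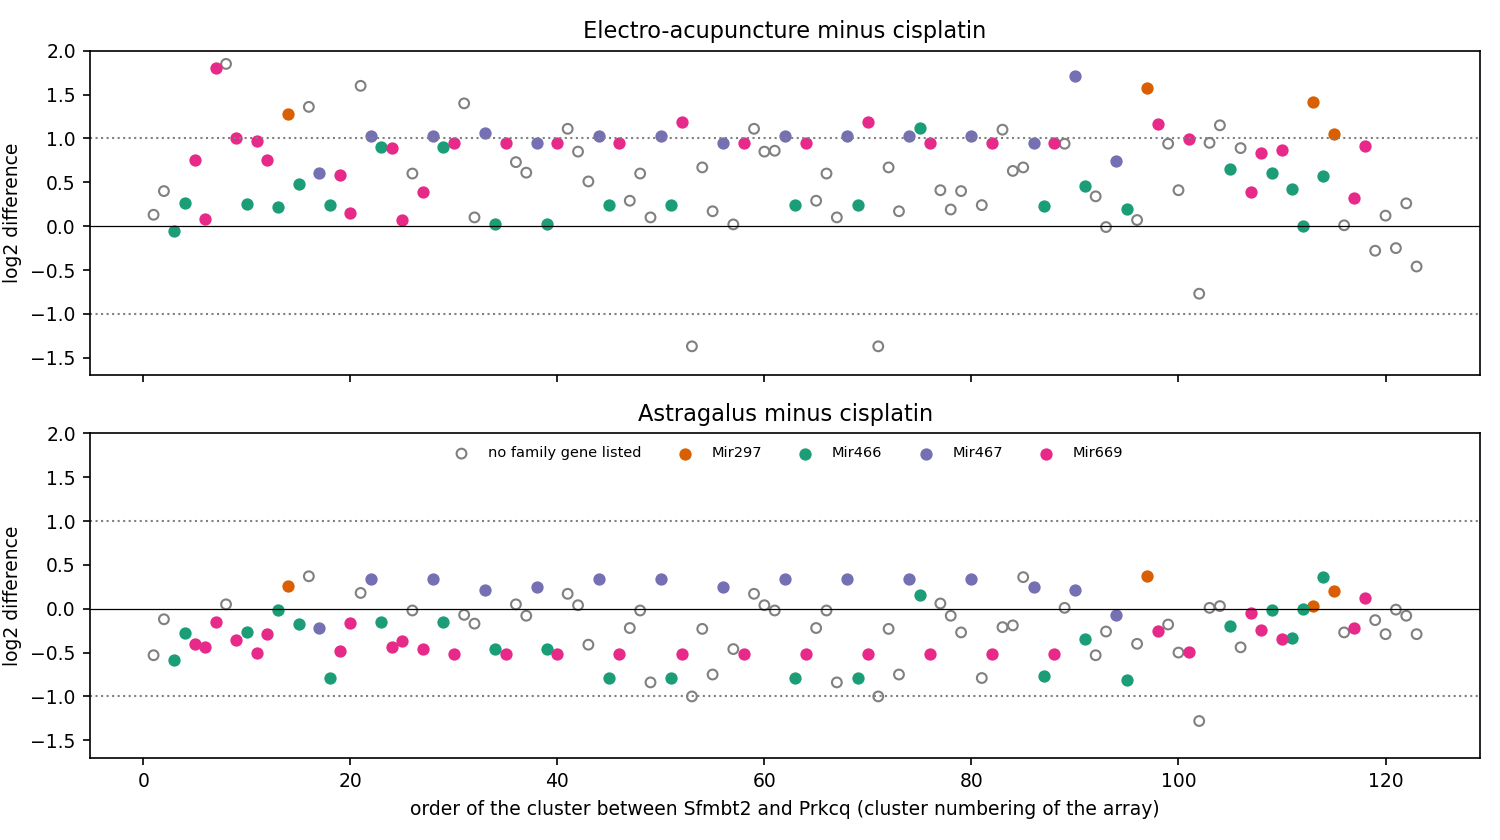
Log2 difference of electro-acupuncture (top) and astragalus (bottom) from cisplatin for each cluster in its order between Sfmbt2 and Prkcq; filled points are clusters that list a family gene, coloured by name, and open points list none. In the top panel most points lie above 0 along the whole row of family genes, and in the bottom panel the Mir669 points lie mostly below 0 while most Mir467 and Mir297 points lie above it.

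Genes that process and use microRNAs stayed within 2-fold. Of the 26 names listed, 21 were measured, and none reached a 2-fold difference in any of the 6 contrasts. Over all signals 2.03% did so in either direction between electro-acupuncture and cisplatin. In the other contrasts these shares were 1.81% for cisplatin and 3.96% for electro-acupuncture and 4.86% for astragalus against control, 2.13% for astragalus against cisplatin and 1.01% for electro-acupuncture against astragalus. In electro-acupuncture 18 of 21 were lower than in cisplatin, against 43.6% of all signals, with a median of -0.10. The largest differences in each direction were those of Ran, the GTPase of nuclear export, at 0.49, and of Srrt, which links the cap of RNA to microRNA processing, at -0.61. Of the 3 higher genes Lin28b, which blocks let-7 processing, was next at 0.11, but it lay under the low-level mark on every array. Of the 18 lower genes the Argonaute gene Ago4 was next at -0.29. Drosha was at 8.66 (control), 8.84 (cisplatin), 8.93 (astragalus) and 8.82 (electro-acupuncture), and Dicer1 at 8.83, 8.69, 9.03 and 8.66. Ago2, the Argonaute that cuts its targets, was at 10.35, 10.15, 10.90 and 10.25, highest in astragalus, as were Drosha and Dicer1. A link between these genes and the family signals was not tested. Tut4 and Tut7, which add uridines to microRNA precursors, were highest in control. Tut4 was at 8.88 (control), 8.22 (cisplatin), 8.28 (astragalus) and 8.12 (electro-acupuncture). Tut7 was at 12.91, 12.27, 12.79 and 12.17, so its astragalus level lay near that of control.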

How the data were processed

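The authors deposited 1 log2 value per transcript cluster and array. Per the submitters' processing notes these were made with Affymetrix Expression Console. The sources used here do not give its version, summary method or genome build. Of 65956 clusters, 31258 carried 1 gene symbol in the platform's gene table, after symbols were updated through the RefSeq table of GRCm38.p6, and no gene was named from the 1492 with several. The cluster with the highest mean stood for a gene, and genes with equal values on all 4 arrays were 1 signal. Differences of log2 values were counted at an absolute value of at least 1, with no filter on low values. No test was run. The members, lists and contrasts were chosen with earlier results of these data known. Members named are, per contrast, up to 8 with the largest difference past 2-fold and a level at or above the median of all clusters on some array, those next to the threshold, and the flattest of each name family, with Sfmbt2, its neighbours and the processing genes that differed most, beside members shown for their sequence or cluster choice. Mir467b, Mir297a-4, the Mir669a-4 signal and the other processing genes were added after their values were seen. Alternatives were other scalings, a low-level filter, other cluster choices and separate copies. The steps were tested on simulated data. Python 3.11.15, pandas 2.3.3 and statsmodels 0.14.6 were used.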

Additional observations from a re-analysis of the deposited data

How the results depend on the processing

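The 6 counts of signals past 2-fold and the 6 medians were recomputed under 6 planned settings and 2 chosen after seeing the data, giving 96 values. Of these, 80 stayed within 1.5 times (counts) or 0.1 (medians), and no median changed sign. With arrays centred on their medians, the astragalus medians were -0.19 against cisplatin and -0.45 against control with a count of 5, and the electro-acupuncture median against astragalus was 0.75. The medians of all signals in these contrasts were then 0.08, 0.08 and -0.11. Quantile normalization gave counts of 2 for cisplatin and 14 for astragalus against control, the latter with a median of -0.71. With a lowess trend removed that median was -0.70. The low-level filter kept 50 signals and gave a median of 1.02 for electro-acupuncture against astragalus. With the mean of a gene's clusters 1 signal passed between electro-acupuncture and control. With every copy counted, the electro-acupuncture medians were 0.76 against cisplatin, 0.40 against control and 1.03 against astragalus, the last with a count of 41 of 77. With the cluster at the gene, counts for astragalus were 1 against cisplatin and 5 against control, and Mir466o turned to 0.23 against control. Counting every copy weights the repeated signals by construction; for the other settings the cause was not tested. Of 2172 differences of single genes, 2133 kept their side of 2-fold, 30 fell under it, 8 rose past it and 1 was counted as reversed. The 2133 include small differences that changed sign. In astragalus against cisplatin, Mir297a-3 was at 0.03 as deposited and at -0.17 after quantile normalization. No paired analysis was possible because each group has 1 array. Leaving out a replicate was not possible for the same reason.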

Other observations

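Clusters that no member was read from gave further values. The second cluster listed for Mir669b, on chromosome 3, was at 9.08 (control), 4.98 (cisplatin), 8.55 (astragalus) and 8.66 (electro-acupuncture), low in cisplatin and nowhere else. The second cluster of Mir466f-1, on chromosome 19, was at 14.99, 14.29, 15.09 and 16.21 in the same order, a 3.78-fold difference between electro-acupuncture and cisplatin. The second cluster of Mir467e, on chromosome 1, was at 8.06, 8.11, 6.76 and 7.98, low in astragalus only. A cluster shared by Mir297a-2, Mir297a-3, Mir297a-4 and Mir297b was at 10.46, 9.68, 9.94 and 10.96, with cisplatin lowest and electro-acupuncture highest, as for Mir297c.

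Outside the family, 4 genes whose mature sequence holds a UGUGUGUG run had a cluster of their own. In electro-acupuncture against cisplatin, Mir1187 differed by 0.33, Mir574 by 0.42, Mir672 by 0.34 and Mir32 by 0.07. All 4 were higher and none reached 2-fold. In astragalus against control Mir1187 differed by -0.51, Mir574 by -0.14, Mir672 by -0.17 and Mir32 by 0.17.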
